A study of Rattus norvegicus with 12 samples.

Results

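Rat XEN cells that had received CHIR99021 together with forskolin were set against XEN cells that had received neither compound. XEN cells are cultured lines of the extraembryonic endoderm, and these are described only as rat XEN cells of the Fisher strain. The comparison held 6 of the 12 arrays of the study, 3 combination arrays and 3 control arrays, chosen by their titles. In the combination group the cells had 3 µM CHIR99021 for 2 days, and 10 µM forskolin was added for the last 1 day. The other groups, of 3 arrays each, had 3 µM CHIR99021 alone for 2 days, 10 µM forskolin alone for 1 day, or no compound (control). All groups spent the last day in 0.1% serum, after culture in 10% serum, so a low-serum day was part of every group, and no vehicle is named for the control. The labels speak of 3 parallels of a condition without saying whether they were separate cultures. The p-values below therefore measure the spread between these arrays, which may be technical.

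CHIR99021 inhibits the kinase GSK3. When GSK3 is inactive, β-catenin is not marked for destruction and can act with TCF/LEF factors on Wnt target genes. Forskolin switches on adenylate cyclase, which makes cAMP, and cAMP activates protein kinase A and with it the factor CREB. In the early rodent embryo the primitive endoderm gives rise to parietal endoderm, motile cells that lay down the thick Reichert's membrane, and to visceral endoderm, an epithelium that takes up nutrients. Parathyroid hormone-related peptide, which raises cAMP, is a known inducer of parietal endoderm. The title of the series ties the adenylate cyclase route to parietal and the Wnt route to visceral differentiation. The combination group holds both signals at once, and the state those cells had on the last day is described here. RNA of a whole culture was measured, so fewer cells of a type and less RNA per cell cannot be told apart.

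Values are log2 signals on Affymetrix rat gene arrays, and a gene's value is the median of the probe sets that carry its symbol. There were 16633 such genes, with a median of 8 probe sets each. A difference is the mean of the combination arrays minus the mean of the control arrays on the log2 scale, so 1 log2 unit is a doubling. A gene is said to have risen or fallen where limma, fitted over the 4 groups and all genes, gave a Benjamini-Hochberg adjusted p below 0.05. The array medians ran from 7.76 to 7.86. Arrays of the same group correlated at 0.985 to 0.991 over the named probe sets, against 0.967 to 0.970 between combination and control arrays. As a gauge of background, the means of 59 olfactory receptor genes had a 95th percentile of 6.57, and signals near or below that level are called near background.

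Of all 16633 genes, 4821 (29.0%) differed between the combination and control. Of these, 2379 (14.3%) rose and 2442 (14.7%) fell, and the median difference over all genes was 0.0119. Changes of at least 1 log2 unit were more often falls, with 265 rises and 472 falls. The 3 arrays of each group did not overlap for 6702 genes (40.3%). Against CHIR alone the combination differed in 2301 genes (13.8%), and against forskolin alone in 4998 genes (30.0%). All these comparisons share the combination arrays, so each is given with its own values. In the plot of difference against mean level, changed genes lie across the whole range of signal.

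**Figure D1:**
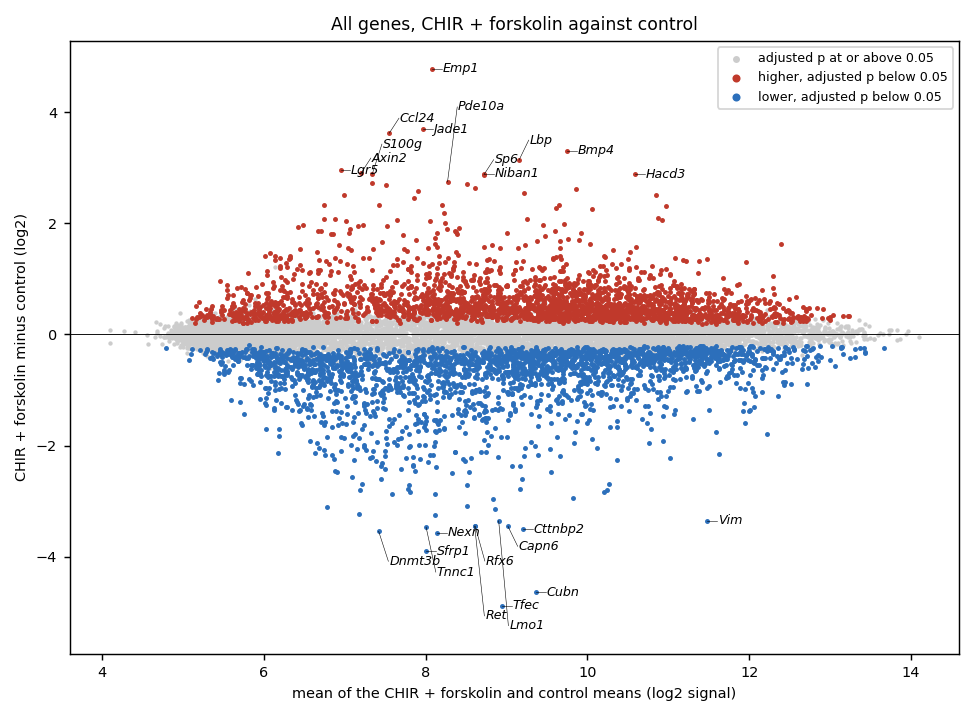
Each point is 1 of the 16633 genes, with the mean of the combination and control levels on the x axis (log2 signal) and the combination minus control difference on the y axis (log2). Red points rose (2379 genes), blue points fell (2442 genes) and grey points did not pass the adjusted p of 0.05. The named points are the 12 largest rises, led by Emp1 at 4.79, and the 12 largest falls, led by Tfec at -4.88.

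The cultures carried the markers of extraembryonic endoderm under both conditions. Gata4, a GATA factor that specifies this lineage, read 12.34, 12.35 and 12.46 on the combination arrays and 12.33, 12.29 and 12.32 on the control arrays, a difference of 0.07 (adjusted p = 0.484). Sox17, an endoderm transcription factor, differed by -0.13 (adjusted p = 0.207). Neither difference passed the test, and both genes were far above background in every group. Gata6, which acts with Gata4, fell by 0.21 (adjusted p = 0.0346), but that call did not hold when any 1 combination array, control replicate 2 or control replicate 3 was left out (differences of -0.22 to -0.20, adjusted p = 0.0591 to 0.0999). Sox7, a partner of Sox17 in the parietal branch, rose by 0.37. Of the 12 measured genes of the extraembryonic endoderm list, 1 rose and 5 fell, where 14.3% of all genes rose and 14.7% fell. All 12 were above background. The steepest fall on that list was that of Foxq1, a forkhead factor, which averaged 5.70 ± 0.16 in the combination and 7.78 ± 0.02 in control cells (SD, n = 3 each). The difference of -2.08 brought Foxq1 into the background range, and on the brightest of its probe sets it was -1.15.

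The largest rise was that of Emp1, which encodes a tetraspan membrane protein of the PMP22 family. Emp1 read 10.52, 10.36 and 10.56 with the combination, 8.85, 8.72 and 8.69 with CHIR alone, 5.66, 5.91 and 5.66 with forskolin alone, and 5.68, 5.76 and 5.62 in control cells. Forskolin alone left Emp1 near background, CHIR alone raised it, and the combination arrays lay above all others. The difference from control was 4.79 ± 0.092 (SE, adjusted p = 8.57e-13) and the difference from CHIR alone was 1.73 (adjusted p = 2.66e-08). Jade1, a component of histone acetyltransferase complexes, read 10.07, 9.73 and 9.64 with the combination, 7.25, 7.13 and 7.24 with CHIR alone, 8.78, 8.75 and 8.66 with forskolin alone, and 6.07, 6.19 and 6.10 in control cells. No 2 groups overlapped for Jade1. Its difference from control was 3.70 ± 0.102 (adjusted p = 1.89e-11), from a control level near background. Bmp4, a ligand of the TGF-β superfamily, read 11.63, 11.19 and 11.37 with the combination, 10.33, 10.44 and 10.60 with CHIR alone, 8.94, 8.94 and 8.86 with forskolin alone, and 8.10, 8.14 and 8.03 in control cells. The groups did not overlap for Bmp4, and the combination was the highest, with a difference from control of 3.31 ± 0.105 (adjusted p = 6.47e-11) and an interaction term, its departure from the sum of the single-compound differences, of 0.12 (adjusted p = 0.769).

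The other 9 of the 12 largest rises fell into several kinds. Ccl24, a chemokine, and Lbp, a secreted binding protein for bacterial lipopolysaccharide, rose by 3.63 and 3.14. Lgr5, a receptor for R-spondins, and Axin2, a scaffold of the β-catenin destruction complex, rose by 2.95 and 2.91. S100g, which encodes the calcium-binding protein calbindin-D9k, rose by 2.89, and Hacd3, an enzyme of very long chain fatty acid synthesis, rose by 2.88. Niban1 and Sp6, a transcription factor of the Sp family, rose by 2.90 and 2.88. Pde10a, a phosphodiesterase that degrades cAMP, rose by 2.75. For 11 of the 12 genes every probe set was higher in the combination. Of the 12 genes, 6 were near background in control cells. The size depended on the probe set for 3 of them, since with the brightest probe set the difference was 1.91 for Axin2, 5.05 for S100g and 0.59 for Pde10a.

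The largest fall was that of Tfec, a transcription factor of the MiT/TFE family. Tfec read 6.59, 6.42 and 6.50 with the combination, 6.25, 5.07 and 6.09 with CHIR alone, 11.08, 10.86 and 11.00 with forskolin alone, and 11.53, 11.34 and 11.30 in control cells. Cells given CHIR, with or without forskolin, were near background for Tfec, and the difference from control was -4.88 ± 0.217 (SE, adjusted p = 1.15e-09), or -3.13 with the mean in place of the median of its probe sets. Cubn, the endocytic receptor cubilin, read 7.11, 7.11 and 6.91 with the combination, 7.43, 7.51 and 7.56 with CHIR alone, 10.29, 10.44 and 10.47 with forskolin alone, and 11.47, 11.87 and 11.73 in control cells. The groups did not overlap, and the combination was below each of the others, with a difference of -4.65 from control (adjusted p = 3.89e-12) and of -0.45 from CHIR alone (adjusted p = 0.0091). Sfrp1, a secreted Wnt antagonist, differed from control by -3.90, Dnmt3b, a de novo DNA methyltransferase, by -3.55, and Vim, the intermediate filament vimentin, by -3.35. Nexn and Tnnc1, which encode the actin-binding protein nexilin and a troponin C, differed by -3.57 and -3.47. Cttnbp2, a cortactin-binding protein, differed by -3.51, and Capn6, a member of the calpain family, by -3.46. Rfx6 and Lmo1, 2 transcriptional regulators, differed by -3.45 and -3.36. Ret, a receptor tyrosine kinase for ligands of the GDNF family, differed by -3.45, with 1 of its 23 probe sets higher in the combination. That probe set was the brightest of Ret, and taken alone it differed by 0.26 (adjusted p = 0.298). For the other 11 genes every probe set was lower. Tfec, Sfrp1, Nexn, Dnmt3b and Tnnc1 averaged 6.50, 6.06, 6.36, 5.65 and 6.27 with the combination, below the background gauge. Background therefore limits the size and rank of those falls.

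**Figure D2:**
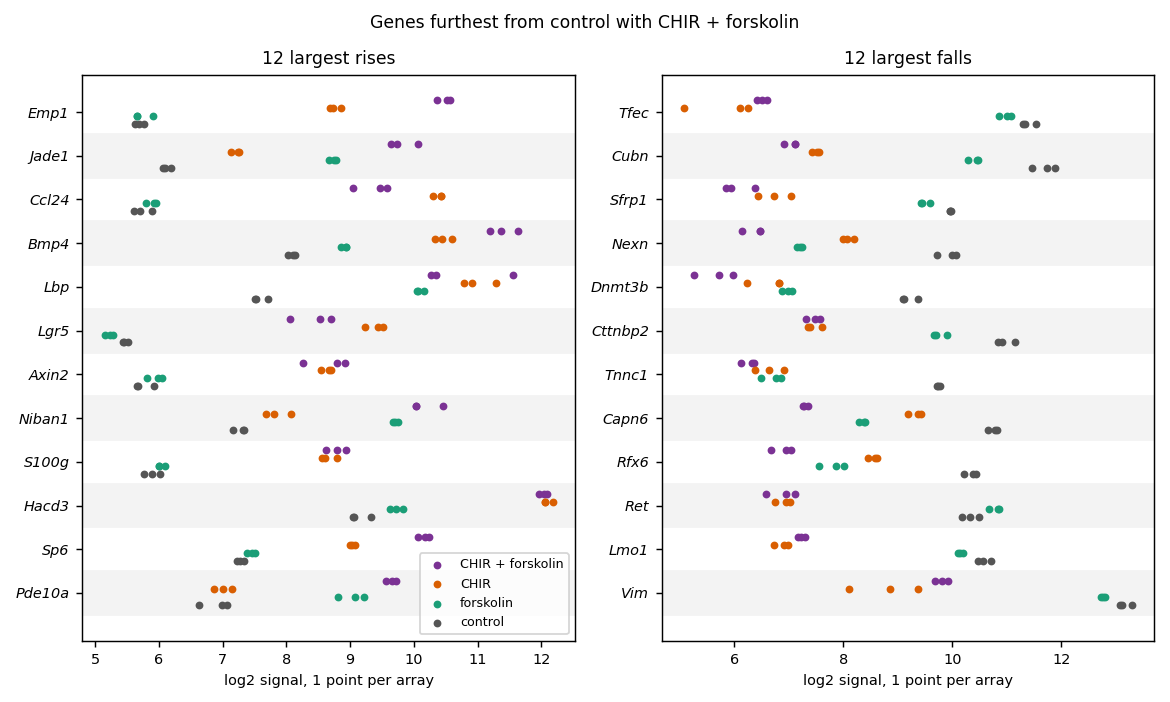
Each point is the log2 signal of 1 gene on 1 array, for the 12 largest rises (left) and the 12 largest falls (right) with the combination against control. Within a row the groups run downwards from CHIR + forskolin through CHIR and forskolin to control, and for every gene shown all 3 combination arrays lie on 1 side of all 3 control arrays.

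Genes that Wnt signalling is known to induce were mixed. Of 22 measured genes on the list of Wnt feedback and TCF/LEF targets, 6 rose, 3 fell and 13 did not pass the test. Of all genes 14.3% rose and 14.7% fell, so the number of falls was near that share. The list's median difference was 0.0837. Only 12 of the 22 were above background, and over the 11 bright members, those whose highest group mean reached the median level of all genes, the median was 1.89. That filter keeps a gene that is high in any 1 group, so its medians are given beside the full ones here and below and support nothing by themselves. The rises were large. Besides Bmp4, Lgr5 and Axin2 they were Tcf7, a TCF factor (2.65), Cdx2, a homeobox factor of the caudal family (1.98), and Rnf43, a ubiquitin ligase that removes Wnt receptors (1.89). Axin2 read 8.26, 8.92 and 8.79 with the combination, 8.70, 8.54 and 8.67 with CHIR alone, 6.05, 5.81 and 5.99 with forskolin alone, and 5.66, 5.92 and 5.67 in control cells. The combination and CHIR arrays overlapped for Axin2 (difference 0.02, adjusted p = 0.96). Tcf7 read 9.92, 9.84 and 10.03 with the combination, 10.66, 10.72 and 10.98 with CHIR alone, 6.89, 7.55 and 7.09 with forskolin alone, and 7.11, 7.53 and 7.20 in control cells. Tcf7 and Lgr5 were lower in the combination than with CHIR alone, with differences of -0.85 (adjusted p = 0.00168) and -0.97 (adjusted p = 0.000194). The members that fell were Ephb2, an ephrin receptor (-2.19), Myc, a growth-promoting transcription factor (-1.23), and Sox9 (-0.43). On the brightest probe set Myc differed by -0.16 (adjusted p = 0.486) and Cdx2 by 0.88. Lef1 averaged 5.77 ± 0.08 in the combination and 5.62 ± 0.03 in control cells (SD, n = 3 each), both near background (adjusted p = 0.164). Ccnd1, which encodes cyclin D1, differed from control by 0.19 (adjusted p = 0.343) and from forskolin alone by 2.27 (adjusted p = 1.45e-08). With the mean of its probe sets Ccnd1 differed from control by 0.24 (adjusted p = 0.0313).

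The promoters of Axin2 and Tcf7 are shown because both genes rose and both windows carry a TCF/LEF core. The windows span 250 bases before to 50 after the annotated start, from RefSeq on the GRCr8 assembly, at chr10:94398535-94398834 on the plus strand for Axin2 and chr10:36954230-36954529 on the minus strand for Tcf7. Capitals mark CTTTGAT or CTTTGTT, searched on both strands.
Axin2: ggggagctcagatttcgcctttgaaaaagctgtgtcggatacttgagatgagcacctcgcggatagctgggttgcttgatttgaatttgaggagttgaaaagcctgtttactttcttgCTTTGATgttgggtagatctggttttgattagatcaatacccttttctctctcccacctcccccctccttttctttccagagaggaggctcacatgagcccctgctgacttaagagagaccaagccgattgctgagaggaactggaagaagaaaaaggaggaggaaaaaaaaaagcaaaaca
Tcf7: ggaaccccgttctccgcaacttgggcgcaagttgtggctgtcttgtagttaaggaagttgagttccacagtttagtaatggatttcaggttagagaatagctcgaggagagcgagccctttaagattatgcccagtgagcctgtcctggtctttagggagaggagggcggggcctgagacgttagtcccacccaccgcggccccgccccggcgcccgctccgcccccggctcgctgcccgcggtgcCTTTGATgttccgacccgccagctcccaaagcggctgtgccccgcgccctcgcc
The match begins 132 bases before the start in Axin2 and 4 bases before it in Tcf7. A match was present in 9.39% of all 33469 rat promoters of this length. Of the 22 list members, 16 had a promoter sequence and 7 of those held a match, 2 of them among the 5 risen members with a sequence.

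Among Wnt receptors and transducers, 5 of 19 measured genes rose and 6 fell (median -0.147), where 14.3% of all genes rose and 14.7% fell. The frizzled receptors differed among themselves, with Fzd6 higher by 1.57 and Fzd5 by 0.60, whereas Fzd4 differed by -1.99 (-0.69 on its brightest probe set) and Fzd2 by -0.99. The list also holds Gsk3b, the kinase that CHIR99021 inhibits, whose mRNA rose by 0.32. Ctnnb1, which encodes β-catenin, differed by -0.09 without passing the test. Of 13 secreted Wnt antagonists, 5 were above background, 1 rose and 2 fell, counts near or below the shares over all genes. The falls were Sfrp1 (-3.90) and Dkk3 (-0.38). Wif1 rose by 0.68 but averaged 6.57 in the combination and 5.89 in control cells, near background in both.

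Targets of cAMP and CREB were likewise mixed, with 8 of 29 measured members rising and 5 falling. Of all genes, 14.3% rose and 14.7% fell. The list median was 0.0327, or 0.104 over 16 bright members and -0.0157 on the brightest probe sets. Nr4a2, an orphan nuclear receptor induced by CREB, read 10.43, 10.51 and 10.57 with the combination, 8.94, 9.04 and 9.51 with CHIR alone, 10.78, 10.77 and 10.63 with forskolin alone, and 8.85, 8.78 and 8.81 in control cells. Its combination arrays lay close to those of forskolin alone (difference -0.22, adjusted p = 0.193) and 1.69 above control (adjusted p = 1.12e-07). Crem, which encodes CREB-family activators and the repressor ICER, read 9.81, 10.05 and 9.85 with the combination and 8.69, 8.90 and 8.61 in control cells, a difference of 1.17 (adjusted p = 3.57e-06). Sik1, a kinase that restrains CREB coactivators, read 7.89, 7.94 and 8.20 with the combination, 6.11, 6.11 and 6.22 with CHIR alone, 9.84, 9.82 and 9.82 with forskolin alone, and 7.47, 7.70 and 7.23 in control cells. For Sik1 the combination stood above control by 0.54 (adjusted p = 0.00179), above CHIR alone by 1.86 and below forskolin alone by 1.82, with no overlap. On the brightest probe set the difference from control was 0.09 for Sik1 (adjusted p = 0.659) and 0.40 for Crem (adjusted p = 0.0251). Nr4a3, a relative of Nr4a2, showed the same order, at 0.63 above control and 1.19 below forskolin alone. Trh, the precursor of thyrotropin-releasing hormone, rose by 1.61, or by 1.02 on its brightest probe set. Egr1, an immediate early gene that also answers to ERK signalling, read 7.34, 7.32 and 7.24 with the combination and 9.72, 9.86 and 9.75 in control cells, a difference of -2.48 (adjusted p = 4.26e-09). Other members that fell were Tent5a (-0.90) and Nr4a1 (-0.58).

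The promoters of Sik1 and Nr4a2 are shown as risen cAMP targets whose windows carry the CRE core TGACG, the sequence that CREB family proteins recognise. They lie at chr20:9958597-9958896 and chr3:62104838-62105137, both on the minus strand, and capitals mark TGACG or, where it is read on the other strand, CGTCA.
Sik1: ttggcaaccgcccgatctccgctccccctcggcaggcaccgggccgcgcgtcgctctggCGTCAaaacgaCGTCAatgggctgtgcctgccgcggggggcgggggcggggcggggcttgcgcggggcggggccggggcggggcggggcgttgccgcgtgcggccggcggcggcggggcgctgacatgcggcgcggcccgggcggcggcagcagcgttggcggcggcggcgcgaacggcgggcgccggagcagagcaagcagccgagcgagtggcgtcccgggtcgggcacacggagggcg
Nr4a2: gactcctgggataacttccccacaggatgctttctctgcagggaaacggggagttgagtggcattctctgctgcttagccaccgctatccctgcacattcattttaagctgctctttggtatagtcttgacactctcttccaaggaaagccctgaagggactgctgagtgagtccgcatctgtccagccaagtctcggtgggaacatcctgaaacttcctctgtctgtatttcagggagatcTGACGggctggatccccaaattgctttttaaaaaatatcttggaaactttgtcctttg
Sik1 holds 2 matches, beginning 191 and 180 bases before the start, and Nr4a2 holds 1, beginning 8 bases before it. The core was present in 21.2% of all promoters and at least 2 copies in 4.96%. Of the 29 list members, 20 had a promoter sequence and 16 held the core. The 8-base palindrome TGACGTCA, which contains the core on both strands, was in 5 of the 20 and in 1.83% of all promoters.

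Enzymes that end the cAMP signal and the machinery that carries it were also measured. Of 16 cAMP phosphodiesterase genes, 4 rose and 2 fell, where 14.3% of all genes rose and 14.7% fell, and 6 were above background. Pde10a read 9.72, 9.56 and 9.66 with the combination, 6.86, 7.00 and 7.15 with CHIR alone, 9.21, 9.08 and 8.80 with forskolin alone, and 6.63, 7.00 and 7.06 in control cells. Its combination arrays exceeded those of forskolin alone by 0.61 (adjusted p = 0.00201). Pde8a rose by 0.60 (0.39 on its brightest probe set), and Pde3a fell by 0.94. Of 30 genes of the PTHrP receptor, adenylate cyclase and protein kinase A list, 2 rose and 6 fell (median -0.0234). Pth1r, the receptor that gives the list its name, is not analysed here. Gnas, the stimulatory G protein subunit, rose by 0.52. Akap12, an anchoring protein for protein kinase A, and Rapgef3, the cAMP sensor EPAC1, differed by -1.32 and -1.14.

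Some genes best known from the thyroid follicle, where thyrotropin acts through cAMP, changed as well. Duoxa2, the maturation factor of dual oxidase, read 9.72, 9.94 and 9.95 with the combination, 5.99, 5.74 and 5.90 with CHIR alone, 11.58, 11.48 and 11.55 with forskolin alone, and 7.38, 6.99 and 7.11 in control cells. The 4 groups did not overlap, with the combination 2.71 above control (adjusted p = 3.98e-10) and 1.67 below forskolin alone. Its partner oxidase Duox2 rose by 1.53, although the brightest probe set of Duox2 differed by -0.27 (not past the threshold). Slc5a5, the sodium iodide symporter, differed by -1.37, or by -0.68 on its brightest probe set. Of 14 genes on that list 3 rose and 1 fell, where 14.3% of all genes rose and 14.7% fell. Of the 14, 7 were above background.

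Most parietal endoderm markers were lower in the combination than in control. Of 19 measured members, 2 rose, 13 fell and 4 did not pass the test, where 14.3% of all genes rose and 14.7% fell. The median difference was -0.431, against 0.0119 over all genes. Against CHIR alone, 6 members rose and 1 fell (median 0.271), where 6.51% of all genes rose and 7.33% fell. Against forskolin alone, 1 rose and 15 fell (median -0.496), where 16.4% of all genes rose and 13.6% fell. Plat, tissue plasminogen activator and a classic marker of parietal endoderm, read 9.00, 9.03 and 9.27 with the combination, 8.54, 8.83 and 9.00 with CHIR alone, 11.25, 11.36 and 11.35 with forskolin alone, and 11.21, 11.08 and 11.14 in control cells. The combination arrays were 2.04 below control (adjusted p = 8.26e-09) and 0.31 above CHIR alone, which did not pass the threshold (adjusted p = 0.0859) although the lowest combination array lay just above the highest CHIR array. Vim read 9.68, 9.81 and 9.92 with the combination, 8.11, 8.86 and 9.37 with CHIR alone, 12.79, 12.77 and 12.73 with forskolin alone, and 13.30, 13.07 and 13.11 in control cells. Here the combination was 3.35 below control and 1.03 above CHIR alone (adjusted p = 0.00511). Thbd, thrombomodulin, fell by 1.07 against control. Snai1, a repressor of E-cadherin that marks the move to parietal endoderm, went the other way. It read 11.41, 11.38 and 11.29 with the combination, 9.94, 10.13 and 10.10 with CHIR alone, 11.38, 11.25 and 11.21 with forskolin alone, and 10.46, 10.48 and 10.46 in control cells. Snai1 was thus 0.90 above control (adjusted p = 1e-06) and 0.08 from forskolin alone (adjusted p = 0.511). Fst, the activin inhibitor follistatin, was the other risen member (0.72). Taking each gene's brightest probe set moved the list median to -0.25 and the difference of Snai1 to 0.55.

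Basement membrane genes fell widely but shallowly. Of 33 measured genes, 2 rose and 20 fell (median -0.397), where 14.3% of all genes rose and 14.7% fell. The nidogens, which link laminin to collagen IV, fell most among the classical components, with differences of -1.60 for Nid1 and -1.20 for Nid2. Nid1 read 11.01, 11.23 and 11.19 with the combination and 12.66, 12.76 and 12.82 in control cells. Lama1, the laminin chain of Reichert's membrane, averaged 13.27 ± 0.03 in the combination and 13.58 ± 0.10 in control cells (SD, n = 3 each), a difference of -0.31 (adjusted p = 0.00504). The partner laminin chains Lamb1 and Lamc1 differed by -0.41 and -0.43, and the collagen IV chains Col4a1 and Col4a2 by -0.35 and -0.46. On the brightest probe set Nid1 differed by -0.66 and Col4a1 by -0.12 (adjusted p = 0.33). Sparc, a matrix glycoprotein, differed by -0.09 (adjusted p = 0.434). Col6a2, a collagen VI chain, fell by 1.42, and Fn1, fibronectin, rose by 0.74.

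Proteases and their inhibitors, through which parietal cells remodel matrix, showed 4 rises and 8 falls among 23 genes. Of all genes, 14.3% rose and 14.7% fell. Mmp15, a membrane-anchored metalloproteinase, read 10.68, 10.73 and 10.85 with the combination and 8.44, 8.43 and 8.57 in control cells, a rise of 2.27 (adjusted p = 1.78e-10). Its relative Mmp14 read 7.32, 7.29 and 7.20 with the combination and 8.75, 8.53 and 8.80 in control cells, a difference of -1.43. Serpine2, an inhibitor of plasminogen activators and thrombin, rose by 1.22 (0.74 with the mean of its probe sets), and Timp3, an inhibitor of metalloproteinases, rose by 0.57. Timp2 and Mmp11 differed by -0.86 and -1.01. Integrins, the receptors for matrix, showed 3 rises and 5 falls among 16 genes, with differences of 1.50 for Itgb4, -1.44 for Itga2 and -1.29 for Itga5. On the brightest probe set they were 0.45 for Itgb4 and -0.85 for Itga5.

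More visceral endoderm markers fell than rose. Of 27 measured genes, 3 rose and 8 fell, where 14.3% of all genes rose and 14.7% fell. The share of rises was thus near that over all genes. Of the 27, 13 were above background. The median difference was -0.068 over all 27, and -0.524 over the 12 bright members. Against CHIR alone, 0 rose and 9 fell, with 3 higher at an unadjusted p below 0.05. In that comparison 6.51% of all genes rose and 7.33% fell. Against forskolin alone 6 rose and 5 fell, where 16.4% of all genes rose and 13.6% fell. Afp and Ttr, secreted proteins of mature visceral endoderm, averaged 5.61 ± 0.07 and 6.36 ± 0.06 in the combination and 5.76 ± 0.18 and 6.40 ± 0.12 in control cells (SD, n = 3 each), near background in both groups. Hnf4a, a nuclear receptor required for visceral endoderm function, read 8.20, 8.32 and 8.69 with the combination, 10.11, 10.21 and 10.14 with CHIR alone, 7.00, 6.95 and 6.65 with forskolin alone, and 8.97, 8.66 and 9.08 in control cells. The combination stood between the single compounds, 1.75 below CHIR alone (adjusted p = 1.04e-06) and 1.54 above forskolin alone (adjusted p = 1.2e-06). It overlapped the control arrays, and its difference of -0.50 from control (adjusted p = 0.0126) lost its call without control replicate 3 (-0.41, adjusted p = 0.0632) or combination replicate 1 (-0.40, adjusted p = 0.0623). Foxa2, a forkhead factor of endoderm, differed from control by 0.05 (adjusted p = 0.835), but by 0.28 on its brightest probe set (adjusted p = 0.0291). Cited1, a coactivator-binding protein, rose by 1.92. Bmp2, a BMP ligand, fell by 0.95. Ihh, a hedgehog ligand, averaged 6.15 ± 0.11 in the combination and 5.73 ± 0.15 in control cells, near background, and its call (0.42, adjusted p = 0.0232) was lost without combination replicate 1 or 2 or control replicate 2 or 3 (0.35 to 0.43, adjusted p = 0.0519 to 0.0998).

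The uptake apparatus of visceral endoderm split. Cubilin works with amnionless, which brings it to the surface, and with megalin. Amn, amnionless, read 7.63, 7.66 and 7.62 with the combination, 8.55, 8.81 and 8.42 with CHIR alone, 8.48, 8.30 and 8.28 with forskolin alone, and 9.81, 9.71 and 9.72 in control cells. Like Cubn, Amn was lower in the combination than in every other group, with a difference of -2.11 from control (adjusted p = 1.58e-09). Lrp2, megalin, read 11.98, 11.86 and 11.94 with the combination, 12.74, 12.62 and 12.52 with CHIR alone, 11.41, 11.51 and 11.44 with forskolin alone, and 10.88, 11.47 and 11.25 in control cells. Lrp2 rose by 0.72 (adjusted p = 0.000363), and its arrays did not overlap those of control. Lrpap1, the chaperone of megalin, fell by 1.11, Dab2, an endocytic adaptor, fell by 0.86, and Vldlr, a lipoprotein receptor, rose by 1.87. In all, 2 of 14 uptake genes rose and 6 fell, where 14.3% of all genes rose and 14.7% fell. On the brightest probe set Amn differed by -0.72 and Lrp2 by 0.29, both past the threshold.

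**Figure D3:**
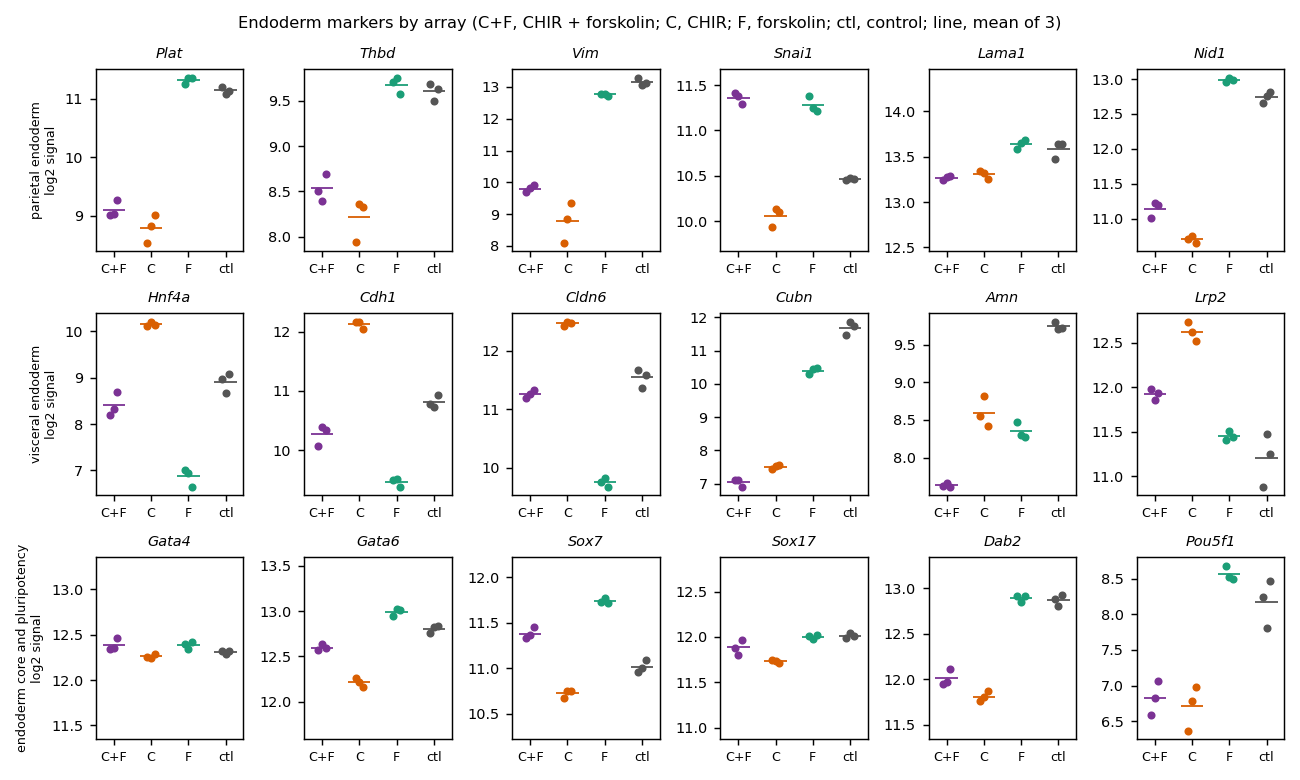
Each panel shows 1 gene, with the log2 signal of each of the 12 arrays on the y axis and the mean of each group as a line. The groups are CHIR + forskolin (C+F), CHIR (C), forskolin (F) and control (ctl). Plat, Vim and Nid1 with the combination lie near CHIR alone, Snai1 lies near forskolin alone, Hnf4a and Cdh1 lie between the single compounds, and Cubn and Amn lie below all other groups.

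As a list, epithelial junction and polarity genes set the combination apart from CHIR alone, and went both ways against forskolin alone. Against control, 2 of 33 measured genes rose and 16 fell, where 14.3% of all genes rose and 14.7% fell. The median was -0.131, or -0.28 on the brightest probe sets and -0.451 over 25 bright members. Against CHIR alone, 0 rose and 22 fell (median -0.618), and 1 member was higher at an unadjusted p below 0.05. In that comparison 6.51% of all genes rose and 7.33% fell. Against forskolin alone, 9 rose and 7 fell (median 0.0971), where 16.4% of all genes rose and 13.6% fell. Cdh1, E-cadherin, read 10.08, 10.38 and 10.34 with the combination, 12.15, 12.17 and 12.05 with CHIR alone, 9.50, 9.51 and 9.38 with forskolin alone, and 10.78, 10.73 and 10.93 in control cells. It was 0.54 below control (adjusted p = 0.000446), 1.86 below CHIR alone and 0.80 above forskolin alone. Cldn6, a claudin of early epithelia, was 1.20 below CHIR alone and 1.51 above forskolin alone. Its difference of -0.28 from control (adjusted p = 0.0255) was no longer called without control replicate 1 or 3 or combination replicate 1 or 2 (-0.28 to -0.22, adjusted p = 0.0609 to 0.103) or with each array centred on its median (-0.24, adjusted p = 0.0797).

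Other junction genes reached or passed below the forskolin level. Cldn7, another claudin, read 7.13, 7.29 and 7.03 with the combination, 10.95, 10.90 and 10.74 with CHIR alone, 7.87, 7.94 and 7.88 with forskolin alone, and 8.58, 8.54 and 8.89 in control cells. The combination arrays were the lowest of the 12. Its difference from control was -1.52 (adjusted p = 7.22e-08) and its interaction term -2.93 (adjusted p = 9.93e-08). Ocln, occludin, read 7.92, 8.23 and 8.46 with the combination, 10.65, 10.57 and 10.68 with CHIR alone, 8.89, 8.84 and 8.45 with forskolin alone, and 10.15, 10.29 and 10.30 in control cells. It fell by 2.04 against control (adjusted p = 5.16e-08). Marveld2, the tricellulin of tricellular junctions, fell by 1.68 and St14, the protease matriptase, fell by 1.30. Epcam, an epithelial adhesion molecule, differed by -1.13 (-1.78 on its brightest probe set).

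The promoter of Cldn7, at chr10:55188420-55188719 on the plus strand, is shown because that gene moved furthest of the list between the combination and CHIR alone and because its window is rich in E-boxes of the type that Snail repressors bind. Capitals mark CACCTG or, read on the other strand, CAGGTG, and the CRE palindrome TGACGTCA.
Cldn7: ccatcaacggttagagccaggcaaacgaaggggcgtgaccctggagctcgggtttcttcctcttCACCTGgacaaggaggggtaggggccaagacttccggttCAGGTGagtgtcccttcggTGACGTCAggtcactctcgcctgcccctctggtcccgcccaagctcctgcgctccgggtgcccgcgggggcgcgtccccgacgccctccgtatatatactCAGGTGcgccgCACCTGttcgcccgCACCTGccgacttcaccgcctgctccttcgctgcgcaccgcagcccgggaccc
The 5 E-boxes begin 186, 147, 28, 17 and 3 bases before the start, and the CRE begins 128 bases before it. E-boxes of this type were in 18.8% of all promoters, and 4 promoters (0.0120%) held at least 5. Of the 33 list members, 19 had a promoter sequence and 15 held such an E-box, as did 7 of the 10 fallen members with a sequence.

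Mesenchymal genes went both ways. Of 15 measured genes, 8 were above background. Against control 2 rose and 4 fell (median 0.0285, or -0.315 over 8 bright members), where 14.3% of all genes rose and 14.7% fell. Against CHIR alone, 4 rose and 0 fell, with 0 lower at an unadjusted p below 0.05, and the median was near 0. In that comparison 6.51% of all genes rose and 7.33% fell. Against forskolin alone, 0 rose and 3 fell, with 0 higher at an unadjusted p below 0.05. There 16.4% of all genes rose and 13.6% fell. The rises against control were Snai1 and Fn1, and the falls were Vim, Tagln (-2.39), Itga5 and Tcf4 (-0.66). Zeb1 and Cdh2, a repressor of E-cadherin and N-cadherin, differed by 0.31 and -0.27 without passing the test.

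Most mitosis and DNA replication genes rose. Of 29 mitosis and G2/M genes, 27 rose and 0 fell (median 0.625), where 14.3% of all genes rose and 14.7% fell. Of the 29, 1 was lower at an unadjusted p below 0.05. Cdk1, the mitotic kinase, read 10.98, 11.17 and 11.17 with the combination, 10.95, 11.04 and 11.01 with CHIR alone, 9.72, 9.59 and 9.68 with forskolin alone, and 10.32, 10.16 and 10.38 in control cells. The combination and CHIR arrays overlapped, and both lay above control, the combination by 0.82 (adjusted p = 4.45e-06). Mad2l1, a spindle checkpoint protein, rose by 0.99, Cenpe, a kinetochore motor, by 0.97, and Aurka, a spindle kinase, by 0.91. Of 32 DNA replication and S phase genes, 22 rose and 0 fell (median 0.448), and 1 was lower at an unadjusted p below 0.05. Cdc6, a replication licensing factor, read 10.26, 10.42 and 10.42 with the combination, 10.58, 10.54 and 10.42 with CHIR alone, 9.04, 8.71 and 8.68 with forskolin alone, and 8.97, 9.10 and 8.80 in control cells, a rise of 1.41 over control (adjusted p = 2.38e-07). Gins3 and Orc1, further replication factors, rose by 1.24 and 1.01. On the brightest probe set Mad2l1 rose by 0.65, Cenpe by 0.50 and Orc1 by 0.62. Among the mitosis genes, forskolin alone against the same control arrays gave 0 rises and 20 falls (median -0.389), where 6.07% of all genes rose and 8.92% fell, with 1 higher at an unadjusted p below 0.05. CHIR alone against control gave 28 rises (median 0.553), where 14.3% of all genes rose. Against forskolin alone, 29 of 29 mitosis genes were higher in the combination (median 1.02), where 16.4% of all genes were higher.

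Regulators of the cycle were less uniform, with 5 of 18 rising and 3 falling, where 14.3% of all genes rose and 14.7% fell. Cdkn1a, the p21 inhibitor of cyclin-dependent kinases, rose by 1.27, and Cdkn2c, the p18 inhibitor, rose by 1.23 (0.81 on its brightest probe set). Cdkn1a read 10.75, 11.03 and 11.05 with the combination and 9.67, 9.70 and 9.65 in control cells. Myc averaged 5.39 ± 0.05 with the combination and 6.63 ± 0.09 in control cells (SD, n = 3 each), near or below the background gauge in both. Inhibitors and replication genes were thus higher in the same arrays.

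Actin, contractile and SRF/YAP target genes had the lowest list median over all measured members, -0.77, with 3 of 28 rising and 19 falling. Of all genes, 14.3% rose and 14.7% fell. Nexn read 6.14, 6.47 and 6.46 with the combination, 8.20, 8.07 and 7.99 with CHIR alone, 7.14, 7.23 and 7.19 with forskolin alone, and 9.73, 10.06 and 9.99 in control cells. For Nexn the combination lay below both single compounds and below the background gauge, and the 4 groups did not overlap. Tnnc1 read 6.32, 6.13 and 6.36 with the combination, 6.38, 6.90 and 6.63 with CHIR alone, 6.86, 6.76 and 6.48 with forskolin alone, and 9.78, 9.73 and 9.71 in control cells. All 3 treatments left Tnnc1 near background. Ajuba, a LIM protein of junctions and Hippo signalling, differed by -3.14, Acta1, skeletal α-actin, by -2.84, and Ankrd1, a YAP target, by -2.69. Taking each gene's brightest probe set moved the list median to -0.337, and over 24 bright members it was -0.77. Over bright members the pluripotency list, with only 3 of them, was lower (-1.345).

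**Figure D4:**
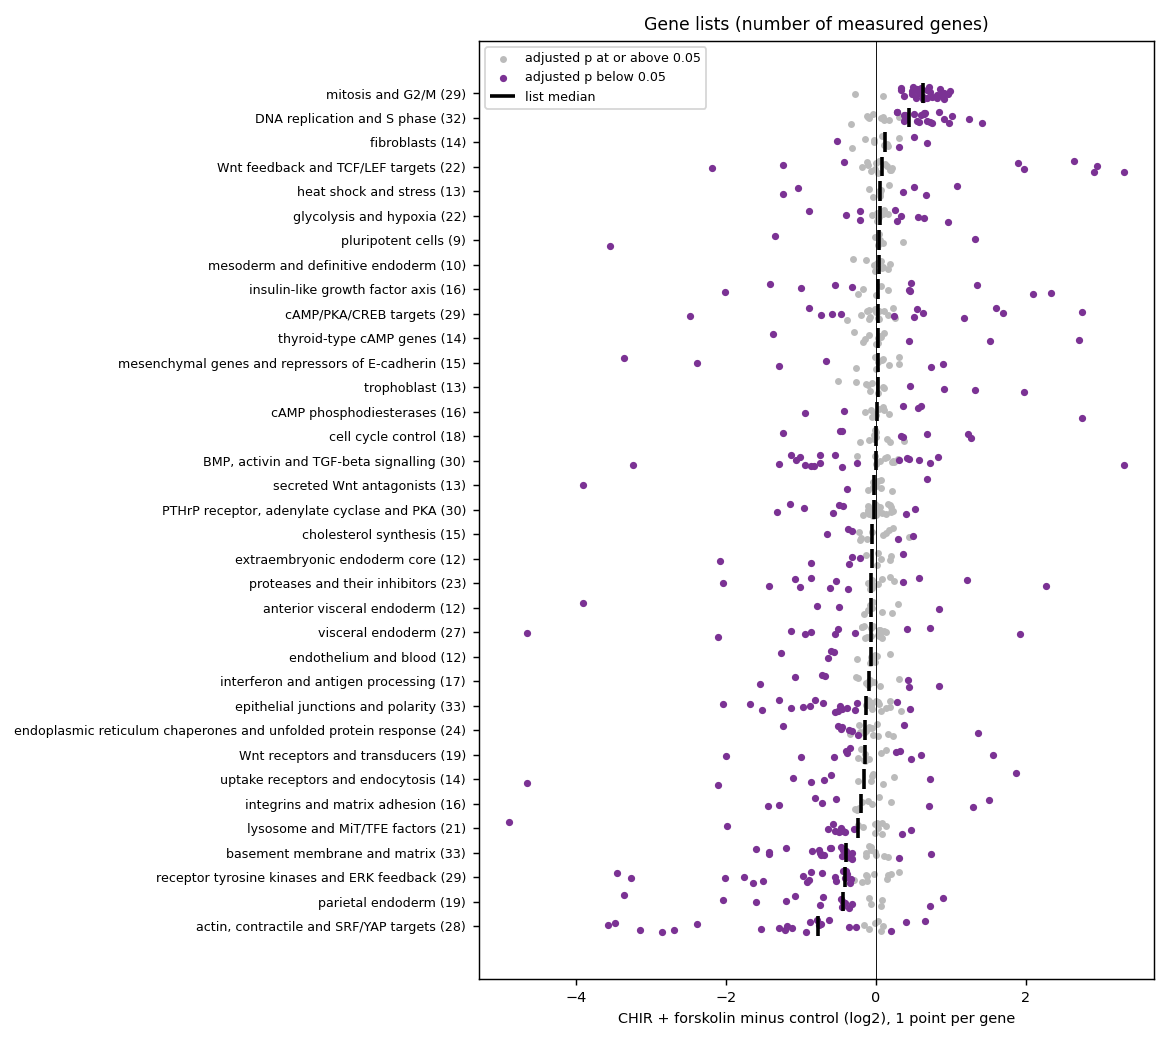
Each row is 1 gene list with its number of measured genes, each point is the combination minus control difference of 1 gene (log2), purple points passed the adjusted p of 0.05, and the bar is the list median. Over all measured members the mitosis list has the highest median (0.625) and the actin list the lowest (-0.77), an order that changes over bright members (Wnt targets 1.89, trophoblast 1.12, pluripotency -1.345), and most lists have medians close to 0 with single members far on either side.

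Growth factor signalling genes were mostly lower. Of 29 receptor tyrosine kinases and ERK feedback genes, 0 rose and 19 fell (median -0.41), where 14.3% of all genes rose and 14.7% fell. Of the 29, 1 was higher at an unadjusted p below 0.05. Ret read 6.58, 6.95 and 7.12 with the combination, 6.75, 7.02 and 6.94 with CHIR alone, 10.83, 10.68 and 10.86 with forskolin alone, and 10.33, 10.18 and 10.48 in control cells. Fgfr3, a fibroblast growth factor receptor, read 6.33, 6.57 and 6.56 with the combination and 9.66, 9.84 and 9.75 in control cells, a difference of -3.26 (adjusted p = 3.98e-10). Fgfr3 came to the background range in the combination. The lowest Ret combination array (6.58) was at the gauge of 6.57 and the others lay above it. The brightest probe set of Ret did not fall (0.26). Igf1r, the receptor for insulin-like growth factor 1, fell by 2.00, although its brightest probe set differed by -1.07. Among genes that ERK signalling induces and that restrain it, Dusp4 fell by 1.64 and Dusp6 fell by 0.92.

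The insulin-like growth factor axis was mixed, with 6 of 16 genes rising and 5 falling (median 0.0354, or 0.223 over 12 bright members). Of all genes, 14.3% rose and 14.7% fell. Igf1, a ligand, rose by 2.33, and H19, an imprinted RNA next to Igf2, rose by 2.09. H19 read 11.89, 11.87 and 11.98 with the combination, 12.47, 12.46 and 12.48 with CHIR alone, 8.58, 8.62 and 8.57 with forskolin alone, and 9.86, 9.78 and 9.83 in control cells. Irs1, an adaptor of the receptor, fell by 1.41. In the BMP, activin and TGF-β list, 7 of 30 rose and 13 fell. Bmp4 was the largest rise of that list and Bmp3 the largest fall (-3.23), followed by Bmp6 (-1.29) and Tgfbr2 (-1.14), and Smad7, an inhibitory Smad, rose by 0.83.

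Secretory and degradative genes fell more often than they rose, where 14.3% of all genes rose and 14.7% fell. Of 24 endoplasmic reticulum chaperone and unfolded protein response genes, 2 rose and 7 fell (median -0.138). Ddit3, the stress factor CHOP, read 10.38, 10.33 and 10.04 with the combination, 8.94, 8.86 and 9.39 with CHIR alone, 9.32, 9.33 and 9.35 with forskolin alone, and 8.82, 8.97 and 8.88 in control cells. Ddit3 rose by 1.36 (adjusted p = 1.72e-06) with no overlap between the combination and any other group, while the chaperone Hspa5 differed by -0.13 without passing the test. Of 21 lysosomal and MiT/TFE genes, 2 rose and 10 fell (median -0.233, or -0.125 on the brightest probe sets). Tfec and Mitf (-1.99) fell most, whereas their relatives Tfeb and Tfe3 differed by 0.08 and 0.02 without passing the test. Glycolysis and hypoxia genes gave 6 rises and 4 falls among 22 (median 0.0521), cholesterol synthesis genes 2 and 3 among 15 (median -0.044), heat shock and stress genes 4 and 2 among 13 (median 0.0635), and interferon and antigen processing genes 3 and 4 among 17 (median -0.0925). The cholesterol counts lie near the shares over all genes. Examples from these lists are Adm, adrenomedullin (0.96), Lss, lanosterol synthase (-0.64), Nqo1, a quinone reductase (1.08), and Ifitm1 (-1.54).

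Markers of other cell types were mostly near background. For the counts against control that follow, 14.3% of all genes rose and 14.7% fell. Of 9 pluripotency genes, 4 were above background, 1 rose (Klf4, 1.33) and 2 fell (Pou5f1 and Dnmt3b). Pou5f1, which encodes Oct4, read 6.59, 6.83 and 7.06 with the combination and 8.25, 7.80 and 8.47 in control cells, a difference of -1.34 (adjusted p = 4.67e-05). Nanog and Sox2 averaged 5.36 and 6.27 in the combination and 5.37 and 6.22 in control cells. The mean of the pluripotency list ran from 6.75 to 6.83 on the combination arrays and from 7.05 to 7.19 on the control arrays. Of 13 trophoblast genes, with 5 above background, 4 rose (Cdx2, Gata2 by 1.32, Gata3 by 0.91 and Igf2 by 0.45) and 0 fell, with 1 lower at an unadjusted p below 0.05. The Igf2 call was lost without control replicate 3 or combination replicate 2 or 3 (0.37 to 0.42, adjusted p = 0.0667 to 0.0937), and on its brightest probe set Igf2 rose by 1.47. The trophoblast list mean ran from 6.44 to 6.47 on the combination arrays and from 6.10 to 6.20 on the control arrays, and the trophoblast factors Elf5 and Hand1 differed by -0.07 and 0.10. Mesoderm and definitive endoderm genes showed 0 rises and 0 falls among 10, with 0 higher and 1 lower at an unadjusted p below 0.05, and list means of 6.49 to 6.58 with the combination and 6.47 to 6.54 in control. Fibroblast genes showed 3 rises and 1 fall among 14 (list means 6.73 to 6.76 with the combination and 6.62 to 6.70 in control). Endothelial and blood genes showed 0 rises and 4 falls among 12, with 1 higher at an unadjusted p below 0.05 (list means 6.69 to 6.77 with the combination and 6.98 to 7.03 in control). Tek, an angiopoietin receptor, fell furthest of these, by 1.27. The part of other cells in these results was not tested. Of 12 genes of the anterior visceral endoderm, a signalling region of the embryo, 1 rose (Hhex, 0.84, or 0.35 with an adjusted p of 0.136 on its brightest probe set) and 3 fell.

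Some genes took a level with the combination that neither compound gave alone. Those furthest above all 3 other groups at once were Emp1, Rbp2, Sp6, Pkdcc, Jade1, Usp2, Mmd and Dip2c. Rbp2, an intracellular retinol-binding protein, read 8.12, 7.63 and 7.59 with the combination, 5.87, 5.95 and 6.03 with CHIR alone, 6.39, 6.46 and 6.24 with forskolin alone, and 5.66, 5.66 and 5.79 in control cells. Only the combination arrays were clearly above background for Rbp2, by 1.83 over CHIR alone (adjusted p = 2.89e-07) and by 1.42 over forskolin alone (adjusted p = 9.16e-07). Against control it rose by 2.08, or by 0.57 on its brightest probe set. Usp2, a deubiquitinating enzyme, averaged 10.92 ± 0.17 with the combination, 9.86 ± 0.04 with CHIR alone, 9.85 ± 0.07 with forskolin alone and 9.50 ± 0.09 in control cells (SD, n = 3 each). Those furthest below all 3 were Pllp, Myo7a, Nrg1, Kcnh2, Inava, Eppk1, Abtb2 and Spink7. Pllp, the membrane protein plasmolipin, read 6.55, 6.71 and 6.69 with the combination, 8.48, 8.42 and 8.45 with CHIR alone, 9.53, 9.56 and 9.45 with forskolin alone, and 8.73, 8.89 and 8.99 in control cells. It differed by -2.22 from control, or by -1.41 with the mean of its probe sets. Nrg1, the ErbB ligand neuregulin 1, averaged 6.97 ± 0.23 with the combination, 8.52 ± 0.17 with CHIR alone, 8.50 ± 0.17 with forskolin alone and 10.06 ± 0.17 in control cells (SD, n = 3 each). Its interaction term was 0.01 (adjusted p = 0.985). Spink7, a protease inhibitor, differed from control by -1.78, and its brightest probe set differed by 0.32 (not past the threshold).

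The interaction term asked where the combination departed from the sum of the single-compound differences on the log2 scale. It passed the threshold for 1050 genes (6.31%), 540 above (3.25%) and 510 below the sum (3.07%), and for 1870 genes with the mean and 630 with the brightest probe set in place of the median. The furthest below was Cited1, which read 9.56, 9.24 and 9.32 with the combination, 10.87, 11.08 and 11.07 with CHIR alone, 10.09, 10.19 and 9.97 with forskolin alone, and 7.73, 7.20 and 7.43 in control cells. Each compound raised Cited1, and the combination lay below either of them (interaction -4.27 ± 0.181, SE, adjusted p = 3.63e-08). Lbp, with an interaction of -2.78, averaged 10.73 with the combination, 11.00 with CHIR alone, 10.09 with forskolin alone and 7.58 in control cells. The Lbp combination arrays spread widely, at 11.56, 10.35 and 10.27, the first above all CHIR arrays and the others below them. Rasgrf1 and Trpm2, a Ras exchange factor and a cation channel, were high with forskolin alone (means 10.36 and 9.42) and near control with the combination (7.66 and 6.01, against 7.63 and 6.17 in control cells). Tnnc1, Dusp4 and Tagln lay above the sum by 2.67, 2.35 and 2.19, genes that each compound alone lowered close to the level of the combination. For Tnnc1 and Dusp4 every treated group averaged between 6.05 and 6.73, around the background gauge, where a further fall cannot be read, so the size of their terms has no order. Tagln averaged 6.93 with the combination, 7.00 with CHIR alone, 7.05 with forskolin alone and 9.32 in control cells. Fhl1, a LIM protein, averaged 9.77 with the combination, 9.54 with CHIR alone, 6.62 with forskolin alone and 8.47 in control cells (interaction 2.08). Its brightest probe set differed from control by -0.20 (not past the threshold). Spsb1 averaged 8.46 with the combination, 6.03 with CHIR alone, 8.66 with forskolin alone and 8.21 in control cells (interaction 1.97), the CHIR level being in the background range.

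Lists differed in how the combination related to the single compounds. For the mitosis list, 9 members had an interaction above the threshold and 0 below it, with none lower at an unadjusted p below 0.05. For the actin list, 14 lay above the sum and 1 below it (median interaction 0.515), where 3.25% of all genes lay above and 3.07% below. Tnnc1 is among the 14 and was near background with each compound alone, where a further fall cannot be read. The count therefore cannot be read as a departure from the sum for every member. Median differences of the actin list from the same control arrays were -0.77 for the combination, -0.728 for CHIR alone and -0.546 for forskolin alone. For the epithelial list, 2 lay above and 12 below (median interaction -0.364), with medians of -0.131 for the combination, 0.259 for CHIR alone and -0.433 for forskolin alone. Over its 25 bright members the medians were -0.451, 0.385 and -0.568 in that order. The filter keeps a gene that is high in any 1 group, so these medians add no support. For the DNA replication list, 4 lay above and 0 below.

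**Figure D5:**
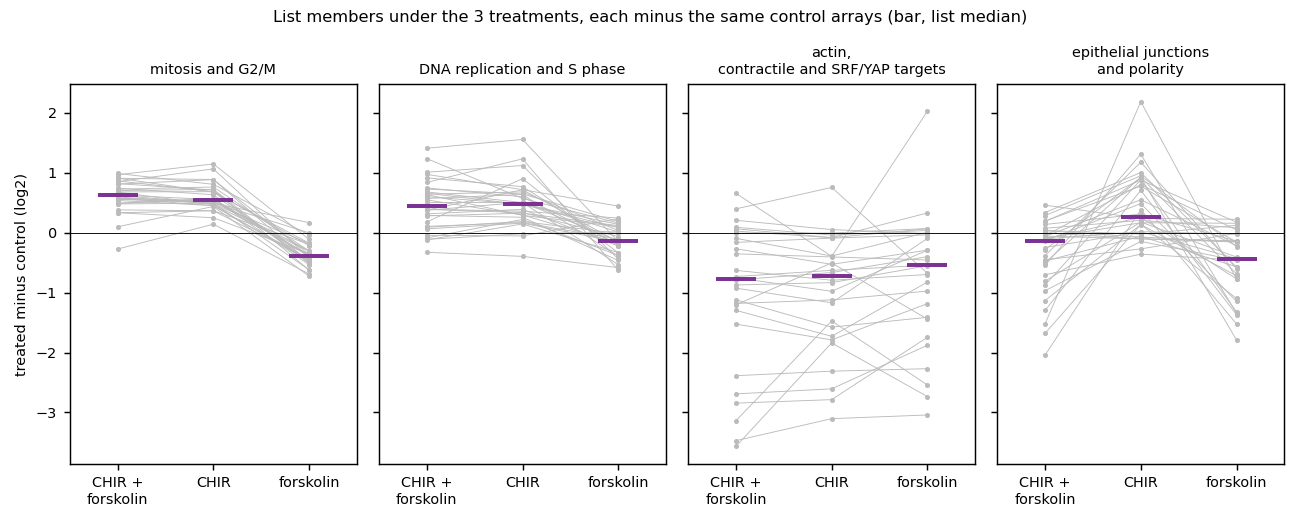
Each grey line is 1 gene of the list, its points are the differences of CHIR + forskolin, CHIR and forskolin from the same 3 control arrays (log2), and the bar is the list median. The combination medians of the mitosis (0.625) and actin (-0.77) lists lie near those of CHIR alone (0.553 and -0.728). The epithelial median (-0.131) lies between CHIR alone (0.259) and forskolin alone (-0.433).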

How the data were processed

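The deposited table holds 211195 probe sets on 12 Affymetrix rat gene arrays as log2 signals that the authors had processed with RMA and Partek, per the submitters' processing notes. No version or build is given in the sources used here, and the log base was read from the value range. Symbols came from the platform's annotation of 2010. Of the probe sets, 172924 carried 1 symbol, 1661 carried several and were left out, and 36610 were unnamed. Symbols were updated through RefSeq for 3640 genes, 12878 were current and 115 were kept.

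The fit used limma 3.58.1 under R 4.3.3 (4 group means, 12 arrays, 16633 genes, Benjamini-Hochberg, adjusted p below 0.05); the scripts were tested on simulated data. The members, the 35 gene lists (699 of 777 entries measured) and the naming rule were chosen with earlier results of these data known. The text names the 12 largest rises and falls, fixed endoderm and pathway markers, list members with the largest called differences, 8 genes above and 8 below all other groups, and 6 interaction genes on each side. Alternatives changed the probe set summary, the centring, the filter, the variance model and the arrays used. The number of arrays limits the precision. Same-numbered arrays of the combination and control correlated at 0.133, 0.0181 and 0.0577, so the numbers were not taken as pairs.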

Additional observations from a re-analysis of the deposited data

Results flagged for a closer look

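The interaction term, which tests whether the effect of forskolin differs between cells with and without CHIR, passed the threshold for 1050 of 16633 genes (6.31%) by limma. The largest positive terms were 2.67 for Tnnc1, 2.35 for Dusp4, 2.19 for Tagln, 2.08 for Fhl1, and 1.97 for both Spsb1 and Pkdcc. The largest negative terms were -4.27 for Cited1, -2.96 for Rasgrf1, -2.93 for Cldn7, -2.78 for Lbp, -2.45 for Trpm2 and -2.44 for Pllp. Dusp4, a phosphatase of MAP kinases, averaged 6.73 with the combination, 6.05 with CHIR alone, 6.71 with forskolin alone and 8.37 in control cells. With treated groups around the background gauge, the terms of Tnnc1 and Dusp4 have no order. Pkdcc, a secreted tyrosine kinase, averaged 8.94 with the combination, 7.83 with CHIR alone, 6.45 with forskolin alone and 7.30 in control cells.

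Signal outside the named genes also changed. Of 36610 probe sets with no gene symbol, which no result above uses, 3383 (9.24%) differed between the combination and control by limma, 1701 higher and 1682 lower, and 1036 of them by at least 1 log2 unit. The share over named genes was 29.0%, but a gene value is a median over probe sets, so these shares are not on the same footing. Over the named probe sets taken singly, 33854 of 172924 were called.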

How the results depend on the processing

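Over 19 alternatives, 4305 of 4511 recomputed gene results stayed the same, 192 lost their call, 4 gained it and 10 reversed. A called gene stayed the same where it was called again in the same direction. A gene not called either time counted as the same whatever its direction. All 10 reversals came with the brightest probe set in place of the median: Ret 0.26, Spink7 0.32, Fhl1 -0.20, Nptx2 0.17, Adcy4 -0.032, Duox2 -0.27, Col1a2 -0.21, Rb1 0.20, Thy1 -0.14 and Vwf 0.20, none of them past the threshold; the cause was not tested. The interaction count was 1870 with the mean and 630 with the brightest probe set, and tested per probe set the combination differed from control at 33854 of 172924. Against control the mean gave 6121 genes and the brightest probe set 4127, of which 4516 and 3140 were among the main 4821. In the same order the counts were 3392 and 1722 against CHIR alone, and 6416 and 4250 against forskolin alone. Leaving out 1 array gave 4119 to 4830 genes against control, 1653 to 2382 against CHIR alone, 4255 to 5109 against forskolin alone and 838 to 1007 for the interaction. With the replicate block the counts were 4711, 2175, 4907 and 978 in that order, and 4 of 6 combination and control arrays correlated best with their own number, so the numbers only hint at pairing; on the genes the naming rule takes, the block ended 5 calls. Centring each array on its median gave 2792 rises and 2148 falls. With bright genes only, the visceral endoderm list median was -0.52.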

Other observations

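In 61 genes, some probe sets were higher and others lower in the combination than in control, each by at least 1 log2 unit and past the threshold, and 40 of these genes were not called at the gene level. A gene value is a median, so such genes can appear unchanged. In Cdhr2, a protocadherin of the brush border, 3 of 31 probe sets were higher and 4 were lower (gene difference -0.66, limma adjusted p = 0.00124). In Ace, angiotensin-converting enzyme, 2 of 31 were higher and 3 were lower (gene difference -0.69). Both genes were chosen after their values were seen, and whether these probe sets follow transcript isoforms was not tested.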
